A study of Homo sapiens with 208 samples.

Results

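The 39 genes described here encode the machinery that copies DNA in S phase, together with regulators of the entry into it. They were chosen by name as genes known for this work and not by their levels, although earlier results of these data were then known. All 39 had a named probe on the array, among 16961 genes with a probe, and all 39 were among the 13261 genes tested. By role, 14 license and drive the replicative helicase, 6 form the sliding clamp and its loader, 7 are polymerase or primase subunits, 3 supply nucleotides, 2 finish Okazaki fragments, 3 bind single-stranded DNA and 4 are G1/S regulators.

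Before S phase, the loading factors CDC6 and CDT1 place the MCM2 to MCM7 ring on DNA at replication origins, which is called licensing. At the start of S phase, MCM10, CDC45 and the GINS proteins turn that ring into the moving helicase. The cyclin E genes CCNE1 and CCNE2 and the transcription factors of the E2F family act at this step from G1 to S, and many replication genes are known E2F targets. In cells whose growth depends on the epidermal growth factor receptor (EGFR), the entry into S phase follows signals from that receptor.

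The human line PC9 comes from a lung adenocarcinoma, carries a deletion that activates EGFR, and is sensitive to gefitinib, which inhibits the EGFR kinase. PC9M2, named PC9GRM2 in the sample labels, was derived from PC9 by culture with gefitinib and carries the same deletion. It was picked from the surviving clones for resistance and PC9-like growth, had no MET amplification, and stands here for resistance as 1 clone. Both lines were starved for 48 h and then kept for 24 h under 1 of 4 conditions, which were no treatment, 0.5 μM gefitinib, 100 ng/ml EGF (the ligand of EGFR), or EGF and gefitinib together. Starvation was shared by all groups, including the untreated ones. In the study's sampling scheme gefitinib was added before 0 h and EGF at 0 h. RNA was taken at 0, 0.5 and 1 h and then every hour to 24 h, which gave 26 time points in each of 8 courses, every point on its own array of 1 colour (Agilent 44K, Cy3).

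Because these genes largely moved together, their promoters were searched for 2 kinds of sequence, the E2F words TTTCCCGC, TTTCGCGC, TTTGCCGC and TTTGGCGC, and the CCAAT box CCAAT, on both strands. Promoters reach from 250 bases before to 50 bases after a gene's start and come from RefSeq (GRCh38.p14), which held them for 32 of the 39 genes. An E2F word was present for 19 of these 32 (59.38%), against 1090 of 27305 genes in all (3.99%). A CCAAT box was present for 18 of 32 (56.25%) against 10846 genes in all (39.72%). A match describes the letters only and does not show that a factor bound there.

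The following 4 sites lie in promoters of members with large gefitinib effects and were chosen after their values were seen, with the E2F word in capitals as it reads on the gene's strand (GCGGGAAA is TTTCCCGC and GCGCCAAA is TTTGGCGC read from the other strand).
GINS2, GRCh38.p14 chr16:85688968-85688995, minus strand: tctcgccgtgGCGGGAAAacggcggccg
RFC3, GRCh38.p14 chr13:33818084-33818111, plus strand: tttggagctcGCGGGAAAacttgtctct
POLE2, GRCh38.p14 chr14:49688202-49688229, minus strand: tgcggcggtgGCGCCAAAtcgcaaatat
MCM6, GRCh38.p14 chr2:135876578-135876605, minus strand: gggctttgcaTTTGGCGCgaaatccctt
Counted from the gene's start, the word begins at base -31 for GINS2, -55 for RFC3, -5 for POLE2 and -152 for MCM6, whose promoter holds 4 matches, some of them overlapping. At the printed MCM6 site another E2F word, TTTCGCGC read from the other strand, overlaps the marked one and is not marked in full. GINS2 and MCM6 encode helicase subunits, RFC3 a clamp loader subunit and POLE2 a subunit of polymerase epsilon.

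The whole promoters of the 3 genes that fell most with gefitinib in PC9 are shown because they differ from those sites, with any CCAAT box in capitals.
CCNE1, GRCh38.p14 chr19:29811741-29812040, plus strand: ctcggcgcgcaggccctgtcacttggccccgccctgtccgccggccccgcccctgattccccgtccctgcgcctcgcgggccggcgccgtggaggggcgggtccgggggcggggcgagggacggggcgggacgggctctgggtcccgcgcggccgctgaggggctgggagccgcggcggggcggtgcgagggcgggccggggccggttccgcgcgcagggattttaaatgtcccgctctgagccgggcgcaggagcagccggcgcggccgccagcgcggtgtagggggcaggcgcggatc
RRM2, GRCh38.p14 chr2:10122489-10122788, plus strand: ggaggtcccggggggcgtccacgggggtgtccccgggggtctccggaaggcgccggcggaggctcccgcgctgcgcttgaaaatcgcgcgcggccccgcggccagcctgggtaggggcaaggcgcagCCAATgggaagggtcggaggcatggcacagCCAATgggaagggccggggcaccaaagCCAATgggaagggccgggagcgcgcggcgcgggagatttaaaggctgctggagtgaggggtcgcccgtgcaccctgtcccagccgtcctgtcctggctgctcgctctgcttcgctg
MCM10, GRCh38.p14 chr10:13161308-13161607, plus strand: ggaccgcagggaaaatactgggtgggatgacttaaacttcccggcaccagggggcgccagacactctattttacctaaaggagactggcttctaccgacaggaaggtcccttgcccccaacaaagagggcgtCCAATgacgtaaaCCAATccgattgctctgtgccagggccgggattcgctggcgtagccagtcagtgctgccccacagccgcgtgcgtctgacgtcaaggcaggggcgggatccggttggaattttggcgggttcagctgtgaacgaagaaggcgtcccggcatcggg
None of the 4 E2F words and no CCAAT box matched in the CCNE1 window. The RRM2 window, the first of 2 promoters listed for the gene, holds 3 CCAAT boxes, which begin at bases -123, -93 and -66 from the start, and that of MCM10 holds 2. Neither window matched an E2F word, which says only that these letters are not in them.

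An array had 24464 to 35938 features well above background (median 29879), and 31 of the 39 genes were so on every array. The 8 others were CCNE2 (179 arrays), POLE and POLE2 (196 each), GINS1, GINS3 and GINS4 (206 each), and GINS2 and POLD3 (207 each). Levels below are log2 normalized intensities and differences are log2 differences, so that a difference of 1 is a factor of 2. With 1 array per time point, the 26 points of each course took the place of replicates. Neighbouring points were not independent, since the lag-1 autocorrelation of the gefitinib effect had a median over tested genes of 0.29 in PC9 and 0.26 in PC9M2. This median was higher for gefitinib with EGF present (0.49 in PC9, 0.39 in PC9M2) and for PC9M2 against PC9 (0.37 untreated, 0.46 with gefitinib). It was lower for EGF alone (-0.06 in PC9, 0.05 in PC9M2) and for the difference of the gefitinib effect between the lines (0.11). P-values therefore measure the spread between time points and not between separate cultures. On a slide were the 4 treatments of a line at a single time, and each treatment always lay at the same slide position, so slide position and treatment cannot be told apart. No slide or scan day (0 of each) was common to both lines, so line and scan period cannot be told apart either. Within a line a scan day held neighbouring hours, so scan day is also mixed with time within a course. Saturated features numbered 183 to 1616 on PC9 arrays and 0 on PC9M2 arrays, and among the 39 genes only MCM7 was saturated, on 6 arrays. As markers of the cell type, all 6 epithelial genes were well above background on every array, and of the 4 lung markers NAPSA was so on 207 arrays, SFTPC on 206, SFTPB on 89 and NKX2-1 on 13. Among markers of other cell types PTPRC and PDGFRB were above background on 1 array each, COL1A2 on 9, DCN on 31, CDH5 on 34 and CD3E on 84, whereas PECAM1 was so on 207 and VWF on all. What part these transcripts play in the values below was not tested. At 0.5 h in PC9M2 the arrays labelled EGF and EGF with gefitinib stood against their neighbours for CCNE1, at 12.575 with EGF (13.335 at 0 h, 13.861 at 1 h) and 13.513 with both (12.825 and 12.562). The CCNE1 difference between them was 0.94 at that hour, against a mean of -2.28 over all hours and -2.40 without that hour.

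Averaged over the 39 genes, with each gene centred on its mean over all arrays, the 4 courses without EGF ran apart. In untreated PC9 the mean level was 0.42 at 0 h, dipped to 0.03 at 2 h and was 0.62 ± 0.09 (SD, n = 6 time points) from 19 to 24 h. With gefitinib it started alike, at 0.46, but was -0.76 ± 0.07 from 13 to 18 h (n = 6) and -0.90 ± 0.08 from 19 to 24 h. Replication gene RNA thus ended lower in treated PC9 than at any time in untreated PC9.

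PC9M2 started from a lower level than PC9, at -0.44 without treatment and -0.55 with gefitinib. Its untreated course rose to 0.73 ± 0.05 from 19 to 24 h. With gefitinib it stayed at -0.66 ± 0.13 from 0 to 5 h (n = 7) and -0.59 ± 0.14 from 6 to 12 h (n = 7), then rose to 0.19 ± 0.05 from 19 to 24 h, so the 2 lines under gefitinib crossed over within the day. In such bulk RNA, fewer cells in S phase and less RNA of these genes per cell cannot be told apart.

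**Figure D1:**
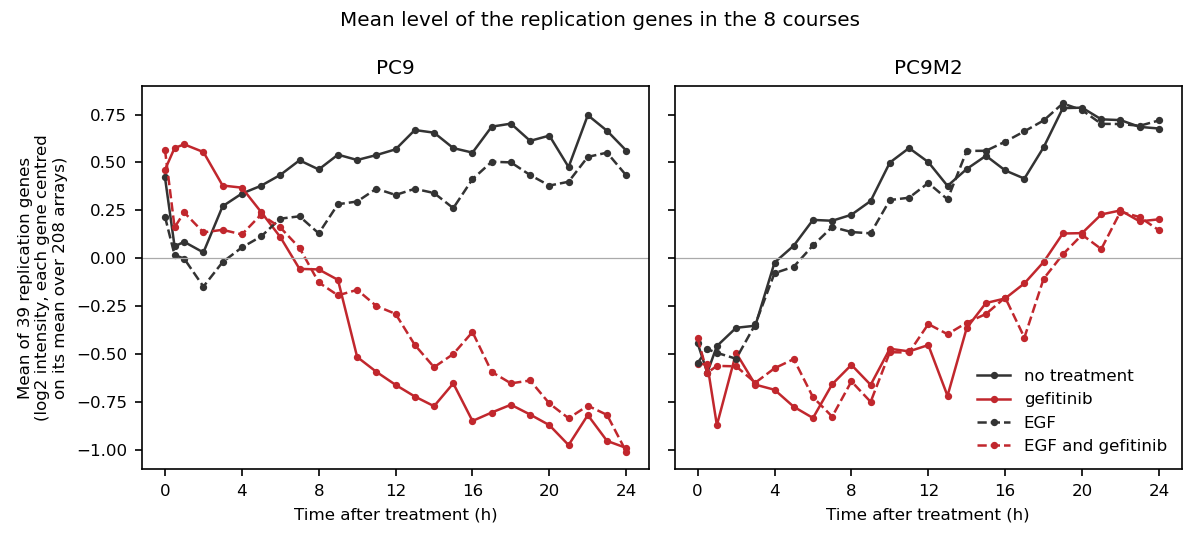
Mean log2 level of the 39 replication genes (y axis, each gene centred on its mean over all arrays) against time in hours (x axis). PC9 and PC9M2 are shown with a line for each of the 4 treatments and a point for each array. Gefitinib was added before 0 h. In PC9 the gefitinib courses fall through the day to about the same end (-0.99 at 24 h, and -1.01 with EGF), whereas in PC9M2 they end higher than they began (0.20, and 0.15 with EGF).

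To see what gefitinib did to replication genes in the sensitive line, PC9 arrays with gefitinib were set against the untreated ones of the same hours (n = 26). Of the 39 genes 31 were lower and 4 higher (limma, Benjamini-Hochberg adjusted p under 0.05), where 37.4% of all tested genes were lower and 34.8% higher. The median difference was -0.83, against -0.03 over all tested genes, and 16 of the 31 fell by at least 2-fold. Of the helicase, clamp, polymerase and nucleotide genes all but CDT1, RFC1, PRIM1 and POLD3 were lower, while E2F2, LIG1, RPA1 and RPA3 were higher.

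CCNE1, the cyclin that drives entry into S phase, fell most. Its level ranged from 13.04 to 13.96 (median 13.67) without treatment and from 10.43 to 12.82 (median 10.81) with gefitinib, so the 2 courses did not overlap. The difference was -2.54 ± 0.16 (SE, n = 26 time points, adjusted p = 1.51e-13), a level 5.80-fold lower, and CCNE1 was lower at 26 of 26 time points. RRM2, the small subunit of ribonucleotide reductase, which makes deoxynucleotides, ranged from 8.15 to 11.82 (median 10.43) untreated and from 6.44 to 10.32 (median 7.55) with gefitinib. These ranges overlap, the difference was -2.35 ± 0.29 (adjusted p = 4.16e-08), and RRM2 was lower at 23 of 26 time points. MCM10, which helps to start the helicase, went from a median of 10.20 (8.82 to 10.56) to 7.33 (6.61 to 9.75), a difference of -2.11 ± 0.27 (adjusted p = 6.46e-08) that was below 0 at 23 points.

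E2F2, a transcription factor of the E2F family, went the other way. It ranged from 11.42 to 12.80 (median 12.32) untreated and from 11.82 to 14.03 (median 13.27) with gefitinib, overlapping ranges, and was 1.01 ± 0.09 higher (2.01-fold, adjusted p = 1.31e-10) at 25 of 26 time points. This value belongs to the probe with the larger variance, since the second E2F2 probe, at a mean level of 7.87 where the used probe had 12.08, differed by -0.12. LIG1, the ligase that joins Okazaki fragments, was higher by 0.45 ± 0.07 (adjusted p = 2.2e-06, 24 of 26 points) and RPA3, a subunit of the single-strand binding protein, by 0.25 ± 0.08 (adjusted p = 0.00726, 19 points). RPA1, its large subunit, was higher by 0.18 ± 0.06 (adjusted p = 0.012).

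Within the licensing and helicase group 13 of 14 fell (median -0.96), from MCM10 at the most to MCM5 at -0.41, and only CDT1, at 0.22 ± 0.15, did not pass. In the clamp and loader group 5 of 6 fell (median -0.89), RFC3 most with -1.65 ± 0.17, and RFC1 at 0.15 did not pass. PCNA, the sliding clamp itself, had levels of 13.17 to 14.34 untreated and 11.28 to 14.06 with gefitinib and fell by 1.09 (SE 0.20, adjusted p = 2.26e-05). Of the polymerase and primase genes 5 of 7 fell (median -0.57), led by POLE2 at -1.51 ± 0.24, a gene well above background on 17 of 26 gefitinib arrays, while PRIM1 (0.13) and POLD3 (-0.12) did not pass. All 3 nucleotide supply genes fell, from RRM2 to RRM1 at -0.30, with TYMS, which makes thymidylate, at -1.16 ± 0.23 (n = 25, as 1 outlier spot was left out). The flap endonuclease FEN1 fell by 0.86, RPA2 by 0.53, and of the G1/S regulators E2F1 fell by 1.23 and CCNE2 by 1.44, the last measured above background on 21 of 26 gefitinib arrays.

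**Figure D2:**
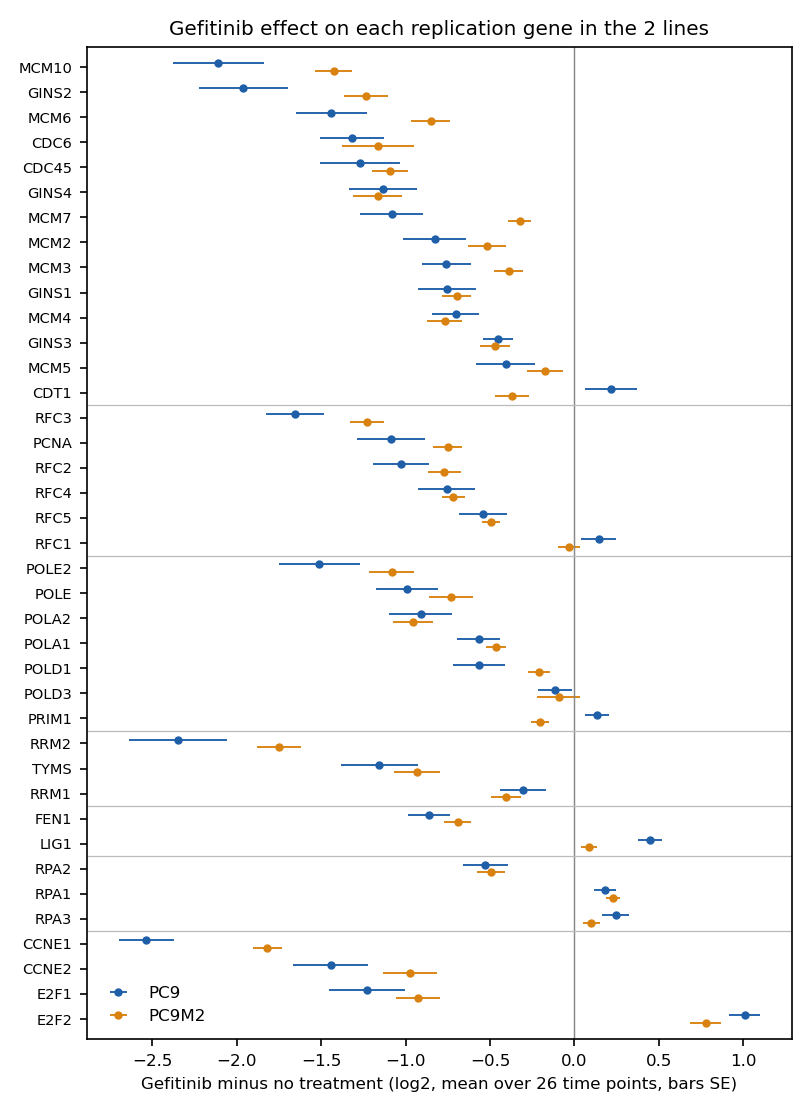
Difference between gefitinib and no treatment for each of the 39 genes (x axis, log2, mean over 26 time points with SE bars) in PC9 and PC9M2, with genes grouped by role on the y axis. Most points lie left of 0 in both lines, from CCNE1 at -2.54 in PC9 and -1.82 in PC9M2, and E2F2 lies furthest right at 1.01 and 0.78.

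Split by time, the effect in PC9 changed sign during the day. From 0 to 5 h, 15 of the 39 were higher with gefitinib and 1, CCNE1, was lower (13.3% of all tested genes were higher and 13.0% lower), with a median difference of 0.27. The mean over the genes was 0.04 at 0 h and reached 0.52 at 2 h, where the untreated course was at its lowest. With scan day, which holds neighbouring hours, as a random block 4 calls were made instead of 16, and with time points 3 h apart 0, although that leaves few points in a window.

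From 6 to 12 h the direction had turned, with 29 lower and 4 higher (28.6% and 27.2% of all tested genes) and a median of -0.73. From 13 to 18 h 31 were lower and 2 higher (34.5% and 30.4%, median -1.31), and from 19 to 24 h 32 were lower and 1, E2F2, higher (33.6% and 32.3%, median -1.60). The effect in the last window was below that in the first for 36 genes and above it for 0 (24.2% and 25.4% of all tested genes), with a median change of -1.72. RRM2 moved from -0.36 ± 0.27 in the first window to -3.82 ± 0.29 in the last, MCM10 from -0.02 ± 0.20 to -3.29 ± 0.22, and GINS2 from 0.13 ± 0.18 to -2.95 ± 0.19. CCNE1 was already at -1.33 ± 0.17 from 0 to 5 h and was at -3.08 ± 0.18 from 19 to 24 h. CDT1, which did not pass over the whole day, was 0.91 ± 0.23 higher in the first window and 0.60 lower (SE 0.25, adjusted p = 0.035) in the last. E2F2 was higher in all 4 windows, by 1.02, 1.13, 0.62 and 1.25.

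With onset taken as the time from which the difference stayed below -0.5 to the end, CCNE1 fell at 0.5 h, MCM10 and RFC3 at 4 h, and CDC6, GINS2 and MCM6 at 5 h. By 6 h 8 of the 39 had fallen in this sense, by 12 h 24, and by 24 h 34. The share of all tested genes was not counted for this measure, so these counts only describe the 39. RFC1, POLD3 and RPA3 entered only with the last array, at 24 h, and had 2, 6 and 1 points below -0.5 in all. The 5 that did not stay below -0.5 to the end were GINS3, PRIM1, LIG1, RPA1 and E2F2, of which GINS3 had 10 points below it. At the end of the day licensing genes stood at a median of -1.69 (13 of 14 lower), clamp and loader genes at -1.78 (5 of 6), polymerase and primase genes at -1.27 (6 of 7) and nucleotide genes at -2.54 (3 of 3).

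**Figure D3:**
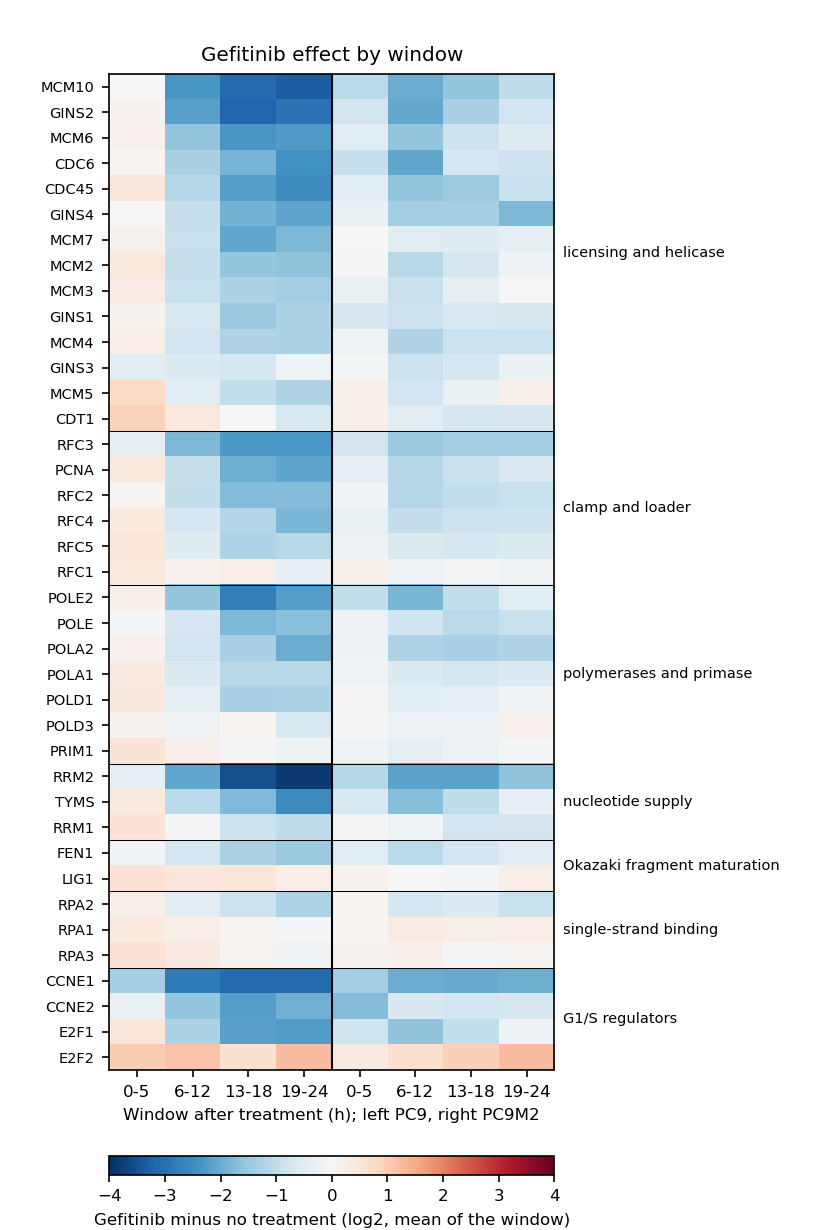
Gefitinib effect on each of the 39 genes (rows, grouped by role) as the mean log2 difference in the windows 0 to 5, 6 to 12, 13 to 18 and 19 to 24 h (columns) in PC9 at the left and PC9M2 at the right, with the colour giving the difference. In PC9 the lowest value of every gene is in the last 2 columns (RRM2 -3.82), whereas in PC9M2 the lowest values are mostly in the 6 to 12 h column (MCM10 and GINS2 among them, GINS2 at -2.04).

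The same comparison in PC9M2 asked whether replication genes of the resistant line also answered the drug. Of the 39 genes 32 were lower and 2, E2F2 and RPA1, higher (34.0% and 32.5% of all tested genes), with a median of -0.70 against -0.01 over all tested genes, and 9 of the 32 fell by at least 2-fold. CCNE1 ranged from 13.36 to 14.96 (median 14.38) untreated and from 11.81 to 12.98 (median 12.45) with gefitinib. As in PC9 these courses did not overlap, and the difference was -1.82 ± 0.08 (n = 26, adjusted p = 2.2e-16), a level 3.53-fold lower at 26 of 26 time points.

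RRM2 ranged from 7.34 to 11.47 (median 9.63) untreated and from 6.04 to 9.22 (median 7.50) with gefitinib, and fell by 1.75 (SE 0.13, adjusted p = 4.28e-12). MCM10 went from a median of 9.55 (7.75 to 10.02) to 7.80 (6.64 to 8.89), a difference of -1.43 ± 0.11 (adjusted p = 8.55e-12). Both were lower at 26 of 26 time points although their ranges over the day overlap. E2F2 was higher by 0.78 ± 0.09 (adjusted p = 2.13e-08, 23 points), where its second probe gave -0.01, and RPA1 by 0.23 ± 0.04 (adjusted p = 4.23e-05, 24 points).

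By role, 13 of 14 licensing and helicase genes fell (median -0.73), all but MCM5 at -0.17 ± 0.11. Of the clamp and loader genes 5 of 6 fell (median -0.73, RFC3 -1.23 ± 0.10), RFC1 at -0.03 being the exception, and PCNA was lower at 26 of 26 points, with a difference of -0.75 ± 0.09. Of the polymerase and primase genes 6 of 7 fell (median -0.46, POLE2 -1.08 ± 0.13), and all 3 nucleotide genes fell (median -0.93), TYMS by 0.93. MCM7, an MCM ring subunit, fell by 0.32 (SE 0.07, adjusted p = 0.000165), CDT1 by 0.37 (SE 0.10, adjusted p = 0.00184) and PRIM1, the small primase subunit, by 0.20 (SE 0.05, adjusted p = 0.00108).

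In PC9M2 the effect was present early and its median was deepest from 6 to 12 h. From 0 to 5 h 16 genes were lower and 0 higher (14.4% and 13.5% of all tested genes, median -0.22), and from 6 to 12 h 31 were lower and 2 higher (24.4% and 26.5%, median -0.88). In that window the untreated array at 11 h stood apart from those at 10 and 12 h. Its mean centred level was 1.32 for nucleotide genes (0.61 and 0.72), 0.99 for clamp and loader genes (0.48 and 0.30) and -0.21 for polymerase and primase genes (0.38 and 0.36). RRM2, TYMS and GINS2 had their lowest difference at 11 h. From 13 to 18 h 30 were lower and 2 higher (27.6% and 25.3%, median -0.75), and from 19 to 24 h 22 were lower and 3 higher (31.1% and 27.8%, median -0.57). Between the first and the last window 13 genes went down and 2 went up (19.7% and 19.9% of all tested genes), with a median change of -0.17, and 6 calls were made there with scan day as a random block. With time points 3 h apart 0 calls were made from 0 to 5 h and 3 between the first and last window. RRM2 was at -1.15 ± 0.21, -2.13 ± 0.21, -2.15 ± 0.23 and -1.61 ± 0.23 in the 4 windows, and E2F1 at -0.80, -1.61, -0.98 and -0.22 (adjusted p = 0.35 in the last). GINS4, a GINS subunit, was at -0.30 ± 0.21 in the first and -1.81 ± 0.23 in the last window, whereas MCM3 and TYMS ended at -0.00 and -0.34 without passing. In the sense used above 18 of the 39 stayed below -0.5 to the end, 11 of them from 12 h or earlier, with CCNE1 from 0.5 h and MCM10 and RRM2 from 1 h. PCNA and FEN1 entered only with the last array, at 24 h. Here too the share of all tested genes was not counted.

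Whether the lines differed in this response was tested on the difference of the gefitinib effects, PC9M2 minus PC9, at matched time points. Over the whole day it was above 0 for 6 genes and below 0 for 3 (17.5% and 16.6% of all tested genes), with a median of 0.17. Neither count was above the share of all tested genes. The 6 whose fall was smaller in PC9M2 were MCM7 (0.76 ± 0.17, adjusted p = 0.000799), GINS2 (0.73 ± 0.25, adjusted p = 0.0253), CCNE1 (0.72 ± 0.11, adjusted p = 5.93e-06), MCM10 (0.68), MCM6 (0.59) and RFC3 (0.43). The 3 below 0 were CDT1 (-0.59 ± 0.13, adjusted p = 0.00114), LIG1 (-0.36 ± 0.09, adjusted p = 0.00295) and PRIM1 (-0.34 ± 0.09, adjusted p = 0.00561). Without pairing of the time points 4 calls were made, and with time points 3 h apart 2.

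The average over the day covered opposite differences early and late, which were tested by window after the courses had been seen. From 0 to 5 h the difference was below 0 for 13 genes and above 0 for 0 (1.54% and 0.588% of all tested genes, median -0.59). Of these 13 genes PCNA, for example, was at 0.39 in PC9 and -0.38 in PC9M2, and MCM10 at -0.02 and -1.08. From 6 to 12 h 3 were below and 1 above (6.55% and 7.71%, median -0.21). From 13 to 18 h 21 were above and 1 below (16.2% and 13.4%, median 0.72), and from 19 to 24 h 22 were above and 0 below (11.7% and 13.1%, median 0.92). With time points 3 h apart, few of which fall in a window, 0 calls were made in each of the first 3 windows and 6 in the last.

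The change from the first to the last window was above 0 for 29 of the 39 and below 0 for 0 (8.23% and 7.23% of all tested genes), with a median of 1.27, and for 0 with time points 3 h apart. It was largest for MCM10 (3.34 ± 0.34, adjusted p = 1.97e-07), E2F1 (3.31 ± 0.31, adjusted p = 6.92e-08) and TYMS (3.22 ± 0.28, adjusted p = 4.73e-08). All 3 nucleotide genes passed (median 3.00), 11 of 14 licensing and helicase genes (median 1.93), 5 of 6 clamp and loader genes (median 1.27), 4 of 7 polymerase and primase genes (median 1.03) and 3 of 4 G1/S regulators (median 1.94). GINS3, at -0.46, was the lowest and did not pass. The 2 comparisons with no treatment share no arrays, since each line had its own untreated course.

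**Figure D4:**
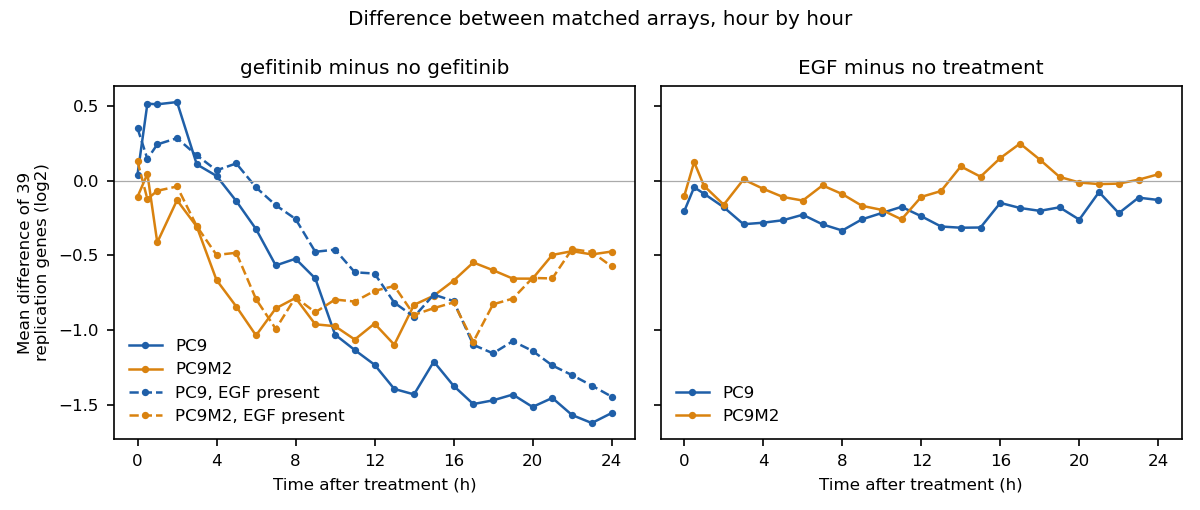
Mean log2 difference of the 39 genes between matched arrays (y axis) against time in hours (x axis). Gefitinib without EGF (solid) and with EGF (dashed) is at the left and EGF at the right. Each is shown in PC9 and PC9M2, with a point per time point. Gefitinib was added before 0 h and EGF at 0 h. The gefitinib effect in PC9 runs from 0.04 at 0 h to -1.55 at 24 h and that in PC9M2 from -0.11 through -1.10 at 13 h to -0.47, while the EGF effect in PC9 stays between -0.33 and -0.05.

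Change over time within a course was tested with a spline. Early and late hours of a course were scanned on different days, so a change of level over time cannot be told apart from scan day. It passed for 31 of the 39 in untreated PC9 (66.5% of all tested genes), 36 in PC9 with gefitinib (77.8%), 36 in untreated PC9M2 (67.5%) and 34 in PC9M2 with gefitinib (63.7%). With time points 3 h apart 0 passed in untreated PC9. The level itself, compared between the last and the first window after the courses had been seen, rose for 22 genes and fell for 3 in untreated PC9 (24.2% and 25.9% of all tested genes, median 0.40). E2F1, a transcription factor of replication genes, rose by 1.28 ± 0.16, POLA2 by 1.197 and CDT1 by 0.96, whereas GINS3 fell by 0.80, RFC3 by 0.66 and PRIM1 by 0.58.

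In PC9 with gefitinib 34 fell and 1, E2F2, rose (31.1% and 30.9% of all tested genes, median -1.33). GINS2 fell by 2.74, CDC45, which travels with the helicase, by 2.71 and RRM2 by 2.64, and E2F2 rose by 0.91 ± 0.22. In untreated PC9M2 32 rose and 0 fell (19.8% and 18.2%, median 1.07), with GINS4 up by 2.72 ± 0.45, RRM2 by 2.47 ± 0.35 and CDC45 by 1.87 ± 0.11. In PC9M2 with gefitinib 27 rose and 0 fell (15.9% and 12.6%, median 0.61). CCNE2 rose by 2.41 ± 0.36, RRM2 by 2.01 ± 0.20 and E2F1 by 1.95 ± 0.23. In PC9 with EGF 22 rose and 3 fell (27.9% and 30.2% of all tested genes, median 0.45), and with both agents 2 rose and 33 fell (31.4% and 31.9%, median -1.03). In PC9M2 with EGF 35 rose and 0 fell (25.3% and 25.8%, median 1.14), and with both agents 26 rose and 0 fell (18.1% and 14.9%, median 0.56).

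**Figure D5:**
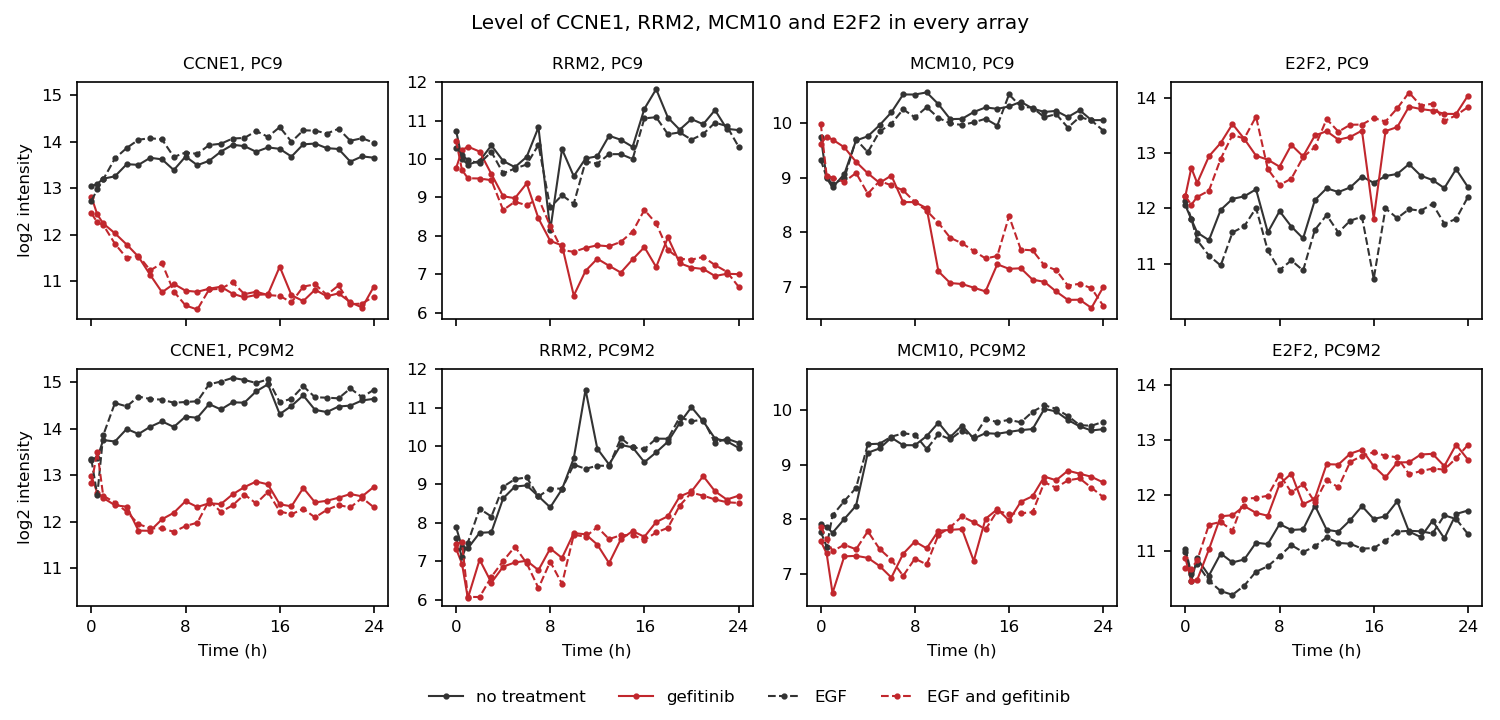
Log2 normalized intensity (y axis) of CCNE1, RRM2, MCM10 and E2F2 on every array against time in hours (x axis) in PC9 and PC9M2, with a line for each of the 4 treatments. CCNE1 lies lower with gefitinib from the earliest hours in both lines, RRM2 and MCM10 climb again under gefitinib in PC9M2 but not in PC9, and E2F2 lies higher with gefitinib at most time points. In PC9M2 the CCNE1 points of the EGF courses cross at 0.5 h.

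With EGF present, gefitinib was compared with EGF alone. In PC9 27 of the 39 were lower and 7 higher (40.0% and 38.9% of all tested genes), with a median of -0.64. CCNE1 fell by 2.85 (SE 0.17, adjusted p = 3.21e-14), a level 7.23-fold lower, RRM2 by 1.89 (SE 0.22, adjusted p = 1.39e-08) and MCM10 by 1.78 (SE 0.21, adjusted p = 1.23e-08). The 7 higher were E2F2 (1.61 ± 0.11, adjusted p = 2.16e-13) and LIG1 (0.77 ± 0.07, adjusted p = 2.94e-11), each at 26 of 26 time points, PRIM1 (0.58 ± 0.06, adjusted p = 8.09e-10), CDT1 (0.55), RPA3 (0.45), RPA1 (0.23) and RFC1 (0.21). By role 10 of 14 licensing, 5 of 6 clamp and loader, 5 of 7 polymerase and primase and 2 of 3 nucleotide genes were lower.

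In PC9M2 30 were lower and 4 higher (38.0% and 36.5% of all tested genes), with a median of -0.64. CCNE1 fell by 2.28 (SE 0.15, adjusted p = 6.43e-12), RRM2 by 1.83 (SE 0.13, adjusted p = 6.7e-12) and GINS2 by 1.59 (SE 0.36, adjusted p = 0.000275). The GINS2 value leaned on the array at 17 h with both agents, where its level was 1.99 and the difference -10.58, and without that point the mean was -1.23. Higher were E2F2 (1.096 ± 0.10), LIG1 (0.32 ± 0.04), RPA1 (0.27 ± 0.06) and RPA3 (0.26 ± 0.07). In this line 12 of 14 licensing, 5 of 6 clamp and loader, 5 of 7 polymerase and primase and all 3 nucleotide genes were lower.

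EGF alone, compared with no treatment, gave small differences. In PC9 29 of the 39 were lower with EGF than without and 1, CCNE1, was higher (14.3% and 11.3% of all tested genes), with a median of -0.21. The mean over the genes was below 0 at 26 of 26 time points, already at -0.20 at 0 h, the time of EGF addition, and between -0.13 and -0.31 on each of the 8 scan days. The largest falls were in E2F2 (-0.59 ± 0.07, adjusted p = 5.1e-07, 24 points), MCM7 (-0.50 ± 0.09, adjusted p = 0.000151) and LIG1 (-0.39 ± 0.04, adjusted p = 4.13e-08, 26 points). CCNE1 was 0.27 ± 0.04 higher (adjusted p = 1.01e-05, 23 points). All 14 licensing and helicase genes were lower (median -0.20), 4 of 6 clamp and loader, 4 of 7 polymerase and primase, 3 of 3 nucleotide and 2 of 4 G1/S genes. Without pairing of the time points 5 calls were made instead of 30, at 3 h spacing 8, and 0 where a change of at least 1 was required.

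In PC9M2 3 genes were lower with EGF and 1 higher (4.92% and 4.16% of all tested genes), with a median of -0.03. E2F2 fell by 0.30 (SE 0.06, adjusted p = 0.000847), RPA3 by 0.17 and LIG1 by 0.16, and CCNE1 was higher by 0.31 ± 0.06 (adjusted p = 0.00118, 24 points). Without pairing 0 calls were made instead of 4. The CCNE1 mean was 0.35 without the 0.5 h point.

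By window, EGF in PC9 lowered 1, 12, 15 and 4 genes and raised 0, 0, 1 and 1 in the 4 successive windows. All tested genes gave 0.0980%, 4.19%, 8.75% and 5.01% lower and 0.558%, 3.65%, 6.47% and 4.51% higher. In PC9M2 it lowered 0, 7, 1 and 0 genes and raised 0, 1, 1 and 0 (0%, 4.12%, 1.80% and 0.528% of all tested genes lower and 0%, 3.18%, 1.19% and 0.814% higher). No gene of the 39 changed its EGF effect between the first and last window by limma's test, in PC9 (1.06% and 0.769% of all tested genes lower and higher) or in PC9M2 (0.0830% and 0.0679%). At an unadjusted p under 0.05, 1 gene in PC9 and 3 in PC9M2 did, and in the PC9M2 windows with 0 calls 6 genes from 0 to 5 h and 0 from 19 to 24 h fell under that value.

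PC9M2 was compared with PC9 at matched time points to see whether the lines differed in these genes to begin with. Untreated, 17 of the 39 were lower in PC9M2 and 6 higher (37.8% and 30.3% of all tested genes), with a median of -0.18. CCNE2, the other cyclin E, was lower in PC9M2, with a difference of -1.05 ± 0.26 (adjusted p = 0.000631), as was RRM2 (-1.05 ± 0.20, adjusted p = 2.78e-05), and GINS4 was at -1.01 ± 0.25 (adjusted p = 0.000657). POLA1, the catalytic subunit of polymerase alpha, was higher at 26 of 26 points, with levels of 10.21 to 11.67 in PC9M2 and 9.54 to 10.53 in PC9, ranges that overlap only at their ends (0.95 ± 0.08, adjusted p = 1.12e-11). POLE2 (0.81 ± 0.13, adjusted p = 2.01e-06), GINS1 (0.71 ± 0.14, adjusted p = 4.63e-05) and CCNE1 (0.65 ± 0.06) were higher too. CDC6 was lower by a mean of -0.42 that became -0.25 without the 17 h point, where the difference was -4.65.

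By role 7 of 14 licensing genes were lower and 2 higher, 2 of 6 clamp and loader genes were lower, and of the polymerase and primase genes 4 were lower and 3 higher. The mean over the 39 was lower in PC9M2 by the most at 0 h (-0.87) and was 0.12 at 24 h. With gefitinib 8 were lower and 5 higher (34.8% and 29.9% of all tested genes), with a median of -0.07. E2F2 (-1.12 ± 0.12, adjusted p = 1.05e-09), GINS4 (-1.02 ± 0.27, adjusted p = 0.00147) and CDT1 (-0.88 ± 0.14, adjusted p = 1.99e-06) were the lowest, although the second E2F2 probe gave 0.26 here and 0.15 between the untreated lines, where the used probe gave -0.90. CCNE1 was 2.58-fold higher at 26 of 26 points (1.37 ± 0.13, adjusted p = 3.71e-10), ahead of POLE2 (1.24 ± 0.36) and POLA1 (1.05 ± 0.13). Here the mean over the genes went from -1.01 at 0 h to 1.19 at 24 h, so the courses crossed during the day. With the variance inflated for autocorrelation 7 calls were made instead of 13, and with time points 3 h apart 6.

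The genes beyond the 39 were described from 2 further lists, 46 other replication and G1/S genes and 25 mitotic genes with a tested probe. Their counts are to be read beside the shares of all tested genes given above for the same comparisons and windows. With gefitinib in PC9 35 of the 46 other replication genes were lower and 2 higher (median -0.70), and in PC9M2 39 were lower and 1 higher (median -0.55). CDC25A, a phosphatase that activates CDK2, fell by 2.41 in PC9 (SE 0.25, adjusted p = 1.32e-09) and by 1.45 in PC9M2. CLSPN, which signals stalled replication forks, fell by 1.79 in PC9 and DBF4, the activator of the origin-firing kinase, by 1.499 in PC9M2. Higher were POLD4 in PC9 (0.46 ± 0.08) and PC9M2 (0.31 ± 0.07) and CDK2 in PC9 (0.25 ± 0.10).

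Of the 25 mitotic genes 8 were lower and 6 higher in PC9 (median -0.05), beside 37.4% and 34.8% of all tested genes, and 18 were lower and 1 higher in PC9M2 (median -0.35), beside 34.0% and 32.5%. In PC9 ECT2, needed for cytokinesis, fell by 0.92 and the kinase gene AURKB by 0.50, while BIRC5 (0.79 ± 0.08) and PLK1 (0.70 ± 0.09) were higher. In PC9M2 CDK1, the mitotic kinase, fell by 0.68 and AURKB by 0.67, and CCNB2 was higher by 0.21. From 19 to 24 h the medians of the mitotic genes were -0.53 in PC9 (19 lower, 3 higher) and -0.79 in PC9M2 (19 lower, 1 higher), beside -1.60 and -0.57 for the 39 replication genes. The change of the line difference from the first to the last window passed for 1 of the 25 mitotic genes (median 0.17), for 23 above and 1 below of the 46 other replication genes (median 0.88), and for 29 of the 39.

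With EGF present, gefitinib lowered 32 and raised 6 of the 46 in PC9, where CDC25A fell by 2.41 and RBL1, an E2F-binding pocket protein, rose by 0.88, and it lowered 39 and raised 2 in PC9M2, where CLSPN fell by 1.69. Mitotic genes were mostly higher in that comparison in PC9 (15 higher, 3 lower, BIRC5 1.28 and KIF20A 1.06) and mostly lower in PC9M2 (5 higher, 15 lower). With EGF alone 21 of the 46 were lower and 1 higher in PC9, CLSPN falling by 0.35, and 18 of the 25 mitotic genes were lower, while in PC9M2 0 and 3 were. Between the untreated lines 23 of the 46 were lower in PC9M2 and 8 higher, among them DBF4 at -1.08 ± 0.21 and WDHD1, a factor of the replication fork, at 0.95 ± 0.08, and 15 mitotic genes were lower and 3 higher. Many of all tested genes were called in these comparisons too, at the shares given above with the 39 genes.

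Across all arrays, with each course centred, the 39 genes tracked the mean of the others with a median Pearson r of 0.70. MCM10 (0.94), CDC45 and MCM6 (0.91 each) and PCNA (0.90) followed it most closely. RFC1 (0.03), E2F2 (0.14), RPA3 and POLD3 (0.19 each) and GINS3 (0.21) hardly followed it. Outside all lists the tested genes most like the mean were DTL (r = 0.93), MTHFD1 (0.91), DSCC1 (0.90), RAD54L (0.89), ATAD2, TCF19 and CHRNA5 (0.87 each), DONSON (0.86), ESCO2 and CENPM (0.84 each). Arrays of a course share their line, treatment and neighbouring hours, so these values are descriptions.

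Of the 39 genes 28 had 1 probe and 11 had 2. Besides E2F2, the probes of RFC1 (-0.03 and 0.10 for gefitinib in PC9M2) and of POLD3, a subunit of polymerase delta, differed in sign. The used POLD3 probe (mean level 7.28) gave -0.12 and -0.09 for gefitinib in PC9 and PC9M2 and -0.75 for untreated PC9M2 against PC9, and the other (11.98) gave 0.25, 0.28 and 0.55. For RRM2, MCM10, RFC3, FEN1, CDT1, GINS3, GINS4 and POLD1 both probes had the same sign for gefitinib in each line, as with RRM2 at -2.35 and -1.87 and MCM10 at -2.11 and -2.11 in PC9.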

How the data were processed

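The authors hybridised Cy3-labelled RNA from every sample to Agilent 44K arrays, and the deposited scanner files (Feature Extraction 10.5.1.1 per the file headers) gave the spot intensity used here, of 45015 features per array. The deposited table of normalized intensity values was used as an alternative. Outlier spots were left out (0.0793% of values), processed signals were quantile-normalized, given a floor of 1 and converted to log2 here from the deposited values. Each of the 16961 genes named through RefSeq accessions (24794 of 41000 probes) was read from its probe of largest variance, and 13261 genes were tested, those that in some course were well above background on 13 or more of 26 arrays.

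Differences at matched time points were tested with limma 3.58.1 (R 4.3.3, statmod 1.5.0), two-sided, with Benjamini-Hochberg adjustment over all tested genes at 0.05. A natural spline of 4 degrees of freedom served for change over time. Time points were paired because each slide held the 4 treatments of 1 time point. Between the lines, which share no slide, only the time was shared. The windows were 0 to 5, 6 to 12, 13 to 18 and 19 to 24 h, of 7, 7, 6 and 6 time points. The number of arrays limits the precision. Tests were checked on simulated data with independent noise on every array. That check held no autocorrelation and no scan-day effect, so it cannot show the error rate where these are present.

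The 39 genes and the other lists were chosen with earlier results of these data known. In each comparison the 3 called genes with the largest difference in each direction were named, then examples per role, and 2 per direction from the wider lists. Line differences by window, levels in the last against the first window, and fits without 0 h were chosen after seeing the data. Alternatives were other scalings, probes, filters and floors, background correction (normexp, offset 50, on median signals in place of mean signals), unpaired fits, a scan-day block, sparser time points and the methods' t-test. Values of 2 genes outside the 39 are not reported here.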

Additional observations from a re-analysis of the deposited data

Results flagged for a closer look

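The gefitinib effect differed between the lines for 9 of the 39 genes by the test of the difference itself (PC9M2 minus PC9 at 26 matched time points, limma), 6 above and 3 below 0, beside 17.5% and 16.6% of all tested genes. Neither count was above that share, so the 39 genes were not called more often than tested genes at large. For 6 genes the fall was smaller in PC9M2. These were MCM7 (0.7575, from -1.0823 in PC9 to -0.3249 in PC9M2, adjusted p = 0.000799), GINS2 (0.7282, adjusted p = 0.0253), CCNE1 (0.7176, adjusted p = 5.93e-06), MCM10 (0.6843, adjusted p = 0.0435), MCM6 (0.5893, adjusted p = 0.0255) and RFC3 (0.4253, adjusted p = 0.0236). CCNE1 was above 0 at 21 of 26 time points and MCM6 at 16.

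For the 3 others the difference lay below 0. CDT1 (-0.587, adjusted p = 0.00114) had an effect of 0.218 in PC9 and -0.369 in PC9M2, and PRIM1 (-0.3355, adjusted p = 0.00561) of 0.1325 and -0.203, of which the PC9 values did not pass their own tests. LIG1 (-0.3633, adjusted p = 0.00295) had an effect of 0.4502 in PC9 and 0.0869 in PC9M2, of which the PC9M2 value did not pass. MCM7 was saturated on 6 arrays, and saturated features were found on PC9 arrays only.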

How the results depend on the processing

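None of the medians, and none of the single-gene results recomputed under the alternatives, reversed. POLD3 was not among the latter, and its probe with the highest mean gave 0.55 for untreated PC9M2 against PC9, where the used probe gave -0.75, and 0.57 against -0.73 with gefitinib. E2F2 was among the recomputed genes, but its used probe also had the higher mean, so that alternative did not exchange it. The second E2F2 probe gave -0.12 in PC9 and -0.01 in PC9M2 for gefitinib, where the used probe gave 1.01 and 0.78. Between the untreated lines these probes gave 0.15 and -0.90. Of the counts of genes called, 577 stayed within 1.5 times the main count and 83 did not, and of the tests of single genes 703 kept their side of the threshold and 32 lost it. The following are counts of the 39 genes called in either direction.

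With a change of at least 1 (log2) required, gefitinib in PC9 gave 17 (2 from 0 to 5 h, 13 from 6 to 12 h) and in PC9M2 9 (4, 18, 10 and 7 in the 4 windows, 3 for last against first). With EGF present it gave 9 in PC9 and 11 in PC9M2. The line difference of the gefitinib effect gave 0 (4, 0 and 11 in the first 3 windows), and EGF gave 0 in both lines and in all windows. PC9M2 against PC9 gave 3 untreated and 5 with gefitinib, change over time in untreated PC9 14, and levels in the last against the first window 2 and 3 in PC9 untreated and with EGF, and 21, 12, 21 and 10 in PC9M2 untreated, with gefitinib, with EGF and with both.

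With time points 3 h apart, which leaves 2 or 3 points in a window, gefitinib in PC9 gave 0 from 0 to 5 h, 17 from 6 to 12 h and 22 for last against first, and in PC9M2 0 from 0 to 5 h and 3 for last against first. The line difference gave 2 (0, 0, 0 and 6 by window, 0 for last against first). EGF gave 8 in PC9 and 0 in PC9M2, and 0 in every window. The lines gave 13 untreated and 6 with gefitinib, change over time 0 in untreated PC9, 13 in untreated PC9M2 and 9 in PC9M2 with gefitinib, and last against first 0 and 4 in PC9 untreated and with EGF, and 19, 3, 21 and 4 in PC9M2.

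Without the replicate block (unpaired courses) the line difference gave 4, EGF in PC9 5 and EGF in PC9M2 0, while the 6 other unpaired counts stayed within 1.5 times. With scan day as a random block the counts were 4 for gefitinib in PC9 from 0 to 5 h, 6 for last against first in PC9M2, 2 for the line difference from 6 to 12 h, 1 for EGF in PC9M2 from 13 to 18 h, and 16 and 15 for levels in PC9 with EGF and PC9M2 with both agents. With outlying points replaced the line difference from 6 to 12 h gave 8, EGF in PC9 3 from 0 to 5 h and 19 from 6 to 12 h, and EGF in PC9M2 1 and 5 from 0 to 5 and 13 to 18 h. With the variance inflated for autocorrelation, PC9M2 against PC9 with gefitinib gave 7. For EGF in PC9 from 0 to 5 h the mean of all probes and the probe with the highest mean gave 2, and normexp, no filter on dim probes and leaving out 0 h gave 0. For EGF in PC9M2 from 13 to 18 h no filter gave 1. The cause was not tested in any of these.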
